A study of Mus musculus with 14 samples.

Results

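Ileal cells sorted for the surface protein CD166 were compared with ileal crypt cells of the mouse, gene by gene. The comparison took the libraries whose labels name these populations and that region, 5 of the 14 libraries of the study: 2 CD166 libraries and 3 crypt libraries. The CD166 cells were sorted as positive for CD44, low in CD24 and positive for CD166. The crypt cells are labelled as crypt stem cells, with no sort marker given. Both groups are from C57Bl6 mice labelled male and 6 to 12 weeks old, with tissue taken 5 to 8 cm from the cecum. No genetic change or drug treatment is given for either group. The labels do not say whether libraries came from separate or pooled mice, so the p-values measure the spread between these libraries, which may be technical. The design text has sorted cells collected straight into lysis buffer, while a culture protocol for sorted cells is also attached to each label. The other libraries are ileal cells selected by LGR5 and the same 3 populations of the jejunum, from tissue 5 to 8 cm from the pylorus.

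Crypts of the small intestine hold crypt base columnar stem cells at their base, interspersed with antimicrobial Paneth cells. Above them, dividing progenitors give rise to absorptive enterocytes and to secretory goblet, enteroendocrine and tuft cells. CD166, encoded by Alcam, is an adhesion molecule used to sort epithelial cells of the crypt base, and CD44 is a hyaluronan receptor and Wnt target enriched there. Such a sort is a gate on surface protein and can hold several cell types. The data are therefore described by lists of genes that mark each cell type.

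Total expected counts in the 5 libraries ran from 6599354 to 16272345. Levels are given in CPM, the counts of each library scaled to one common total with TMM factors, in the order of the library numbers. A gene was called changed at an adjusted p under 0.05 in edgeR's quasi-likelihood test. That fit took in all 14 libraries, so that the small groups share one estimate of the spread, and tested 14750 genes. Ileum crypt 3 stood apart from the other crypt libraries. Fabp6, which binds bile acids within ileal cells, stood at 25.8 CPM in it, against 2688 and 1987 CPM in ileum crypt 1 and 2. Hoxb9, a homeobox gene of distal position, stood at 0.229 CPM, against 19.4 and 23.2 CPM there. Over tested genes its root mean square log2 difference was 0.544 from jejunum crypt 1, the third smallest of the 91 pairs of libraries, and 1.03 and 0.821 from ileum crypt 1 and 2. The profile thus goes against its label, and results are also given without the library labelled ileum crypt 3. Both CD166 libraries carried the ileal pattern, with 298 and 424 CPM of Fabp6 and 62.3 and 55.8 CPM of Hoxb9. Xist, the transcript of the inactive X chromosome, reached 611 and 799 CPM in the CD166 libraries and 1675, 3.01 and 2.86 CPM in the crypt libraries, although every label says male. The part of that difference in the results was not tested. Without both crypt libraries high in Xist, ileum crypt 1 and jejunum crypt 2, there were 2680 calls, against 1235 with them. Leaving out ileum crypt 1 alone gave 1005 calls, and leaving out jejunum crypt 2 alone gave 2637. Without both, the CD166 libraries were high in Xist and the remaining ileum crypt libraries low. Xist status and cell population then cannot be told apart.

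CD166 cells had called rises in 6 of 12 enteroendocrine hormone genes, 11 of 21 enteroendocrine transcription factors and 8 of 25 tuft cell genes, and called falls in 21 of 26 enterocyte genes, 7 of 24 lymphocyte genes and 5 of 5 red blood cell genes. With the library labelled ileum crypt 3 left out these counts were 4, 4 and 1 rises and 20, 0 and 5 falls, and no tuft, lymphocyte or red blood cell call held without CD166 2. Of the 14750 genes tested, 1235 were called (8.37%), 477 of them higher in CD166 cells (3.23%) and 758 lower (5.14%). Both CD166 libraries lay above all crypt libraries in 25.3% of the tested genes and below all of them in 22.1%. Counts of list members are to be read beside these shares. The median log2 difference over all tested genes was 0.01. A difference of at least 2-fold was held by 333 of the genes called higher (2.26% of the tested genes) and 579 of those called lower (3.93%). In bulk libraries a larger number of cells of a type and more RNA per cell cannot be told apart. Without the library labelled ileum crypt 3 there were 518 calls (3.51%), 126 higher (0.855%) and 392 lower (2.66%), and 499 of them were also called with all libraries in the same direction. These shared calls were 96.3% of the calls without that library and 40.4% of the calls with it.

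The number of calls depended on which libraries were kept. Among fits that left out 1 library, it was lowest without CD166 1 or CD166 2. Those fits leave 1 CD166 library, and the part of the smaller group in the lost calls was not tested. All 1235 called genes kept the sign of their difference in both of these fits, though they were chosen as called with both CD166 libraries in. Jejunal libraries are not part of the ileal contrast, but they share the estimate of the spread and help set the scaling and which genes are tested. The count was 2637 of 14467 tested genes without jejunum crypt 2. It was 717 of 15553 without jejunum LGR5 1 and 706 of 15529 without jejunum LGR5 2. With the 5 compared libraries fitted alone it was 185. In all 14 fits that left out 1 library, 74 genes were called, 15 higher and 59 lower. The steadily higher genes included the hormone genes Sst, Iapp and Sct, the transcription factor gene Isl1 and the channel genes Abcc8 and Cacna1a. The steadily lower ones included the brush border genes Sis, Anpep and Enpep, the lipid genes Npc1l1, Dgat1, Dgat2 and Mogat2, and the cell cycle inhibitor gene Cdkn2b.

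**Figure D1:**
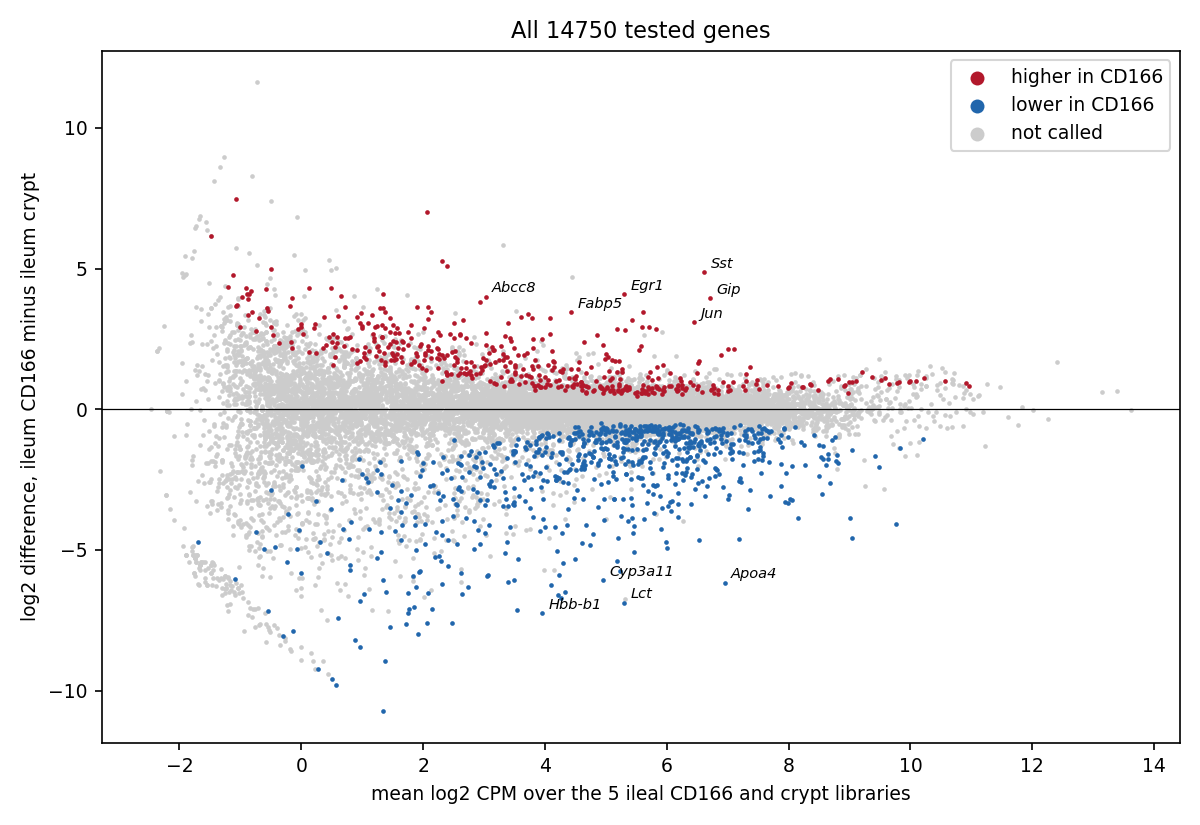
Each point is 1 of the 14750 tested genes; the x axis is its mean log2 CPM over the 5 libraries and the y axis its log2 difference, ileum CD166 minus ileum crypt. Red points were called higher (477) and blue points lower (758), and labels mark 10 of the ranked genes, from Sst at 4.86 to Hbb-b1 at -7.23.

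Genes were ranked if called, free of overlap and at 3 or more in mean log2 CPM. The 12 largest rises were those of Sst, Egr1, Abcc8, Gip, Fabp5, Fos, Scgn, Gfra3, Scg2, Pyy, Rgs13 and Jun. Of these, Sst, Gip and Pyy are on the hormone list, Abcc8, Gfra3 and Scg2 on the list of secretory machinery, Rgs13 on the tuft cell list and Egr1, Fos and Jun on the immediate early list. Fabp5, a fatty acid binding protein, had 44.0 and 158 CPM in CD166 cells, against 4.90, 11.3 and 11.3 CPM in crypt cells (log2 3.46 ± 0.48 SE, adjusted p = 0.00271). Scgn, the calcium sensor secretagogin of endocrine cells, had 30.7 and 85.7 CPM in CD166 cells and 2.74, 6.63 and 7.55 CPM in crypt cells (log2 3.37 ± 0.58 SE, adjusted p = 0.00805). Gfra3, a co-receptor for the neurotrophic factor artemin, had 25.4 and 75.8 CPM in CD166 cells and 2.96, 6.93 and 5.83 CPM in crypt cells (log2 3.28 ± 0.58 SE, adjusted p = 0.00873). CD166 2 was the higher CD166 library in each of these 3 genes. Of the 12 rises, 7 stayed called without CD166 1, 6 without CD166 2 and 7 without the library labelled ileum crypt 3.

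The 12 largest falls by the same rule were those of Hbb-b1, Cd8a, Lct, Enpp7, Ccl5, Gzmb, Cd7, Apoa4, Cyp2b10, Cyp3a11, Bst1 and Fam151a. They joined genes of blood and lymphocytes with genes of mature enterocytes. Enpp7, the alkaline sphingomyelinase of the brush border, had 1.20 and 1.15 CPM in CD166 cells, against 127, 58.2 and 188 CPM in crypt cells (log2 -6.72 ± 1.11 SE, adjusted p = 0.00648). Bst1, an ectoenzyme that makes cyclic ADP-ribose, had 1.20 and 0.701 CPM in CD166 cells and 65.1, 22.3 and 99.1 CPM in crypt cells (log2 -6.06 ± 0.91 SE, adjusted p = 0.00411). Cd8a, a T cell co-receptor chain, had 0.0923 and 1.79 CPM in CD166 cells and 330.4, 13.3 and 89.4 CPM in crypt cells (log2 -7.12 ± 1.95 SE, adjusted p = 0.0469). In Enpp7 and Bst1 the crypt libraries lay within several fold of each other, while in Cd8a they spread over more than an order of magnitude. Of the 12 falls, 2 stayed called without CD166 1, none without CD166 2 and 4 without the library labelled ileum crypt 3. Between 5 and 11 stayed called without any 1 of the other libraries, 5 being the count without any 1 LGR5 or jejunum CD166 library.

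The sort markers moved unevenly. Cd44 (ENSMUSG00000005087) stood at 171 and 192 CPM in CD166 cells, against 60.0, 67.5 and 47.9 CPM in crypt cells. The groups did not overlap and the gene was called 3.10-fold higher (log2 1.63 ± 0.26 SE, adjusted p = 0.00515). Alcam (ENSMUSG00000022636), which encodes CD166 itself, had 39.2 and 38.4 CPM in CD166 cells and 34.1, 36.5 and 47.7 CPM in crypt cells (log2 -0.02 ± 0.23 SE, adjusted p = 0.965). These levels overlapped, so the RNA of the sorted protein gave no separation. Cd24a, which encodes the protein selected as low, had 735 and 1071 CPM in CD166 cells and 301, 597 and 351 CPM in crypt cells. Every CD166 library lay above every crypt library in Cd24a, without a call (log2 1.12 ± 0.39 SE, adjusted p = 0.104). Epcam, an adhesion gene of all gut epithelium, had 1579 and 1733 CPM in CD166 cells and 1896, 1714 and 1677 CPM in crypt cells, with no call. The call of Cd44 held without the library labelled ileum crypt 3 (log2 1.51 ± 0.29 SE, adjusted p = 0.0188) and was lost without CD166 2.

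Genes of the crypt base columnar stem cell lay higher in CD166 cells, but few passed the test. Of the 27 list members, all tested, 2 were called higher and none lower. Their median log2 difference was 1.04, against 0.01 over all tested genes. In 24 members both CD166 libraries lay above all crypt libraries, a pattern held by 25.3% of all tested genes, and in 1 member both lay below (22.1% of all tested genes). Lgr5 (ENSMUSG00000020140), the R-spondin receptor that marks these cells, had 227 and 158 CPM in CD166 cells and 57.8, 80.2 and 39.2 CPM in crypt cells. It was called 3.27-fold higher (log2 1.71 ± 0.46 SE, adjusted p = 0.0447). Ephb3, a guidance receptor of the crypt base, was the other called member (log2 1.59 ± 0.44 SE, adjusted p = 0.0495), at 133 and 115 CPM in CD166 cells and 33.1, 64.7 and 26.1 CPM in crypt cells. Olfm4, a secreted glycoprotein abundant in stem cells, had 11250 and 10927 CPM in CD166 cells against 2524, 3953 and 3817 CPM in crypt cells and missed the threshold (log2 1.69 ± 0.48 SE, adjusted p = 0.0524). Ascl2, a Wnt-driven transcription factor of these cells, had 73.1 and 61.5 CPM in CD166 cells and 11.1, 41.8 and 20.9 CPM in crypt cells (log2 1.46 ± 0.64 SE, adjusted p = 0.181). In all 4 genes both CD166 libraries lay above every crypt library. Neither call held without CD166 1, without CD166 2 or without the library labelled ileum crypt 3, where the median was 1.12 and Lgr5 stood at log2 1.48 ± 0.50 SE (adjusted p = 0.136). Lgr5 was also lost without ileum crypt 1, without either jejunum CD166 or jejunum LGR5 library and without jejunum crypt 3, and Ephb3 without these and without either ileum LGR5 library.

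Markers proposed for reserve stem cells were mixed. Hopx, a homeodomain-only protein, stood at 253 and 289 CPM in CD166 cells and 117, 143 and 80.7 CPM in crypt cells and was called 2.39-fold higher (log2 1.26 ± 0.25 SE, adjusted p = 0.0155). Mex3a, an RNA-binding protein, was called as well (log2 1.19 ± 0.30 SE, adjusted p = 0.0375), at 22.6 and 21.5 CPM in CD166 cells and 7.18, 13.4 and 8.46 CPM in crypt cells. The other 6 of the 8 members, Bmi1, Tert, Lrig1, Krt15, Krt19 and Clu, were not called. Bmi1, a polycomb gene, had 40.4 and 37.5 CPM in CD166 cells and 35.2, 35.6 and 34.5 CPM in crypt cells. Hopx kept its call without the library labelled ileum crypt 3 (log2 1.06 ± 0.24 SE, adjusted p = 0.0415) and Mex3a did not (adjusted p = 0.115), and both calls were lost without either CD166 library. Mex3a was further lost without ileum crypt 1 and without any 1 of the 4 LGR5 libraries or the 2 jejunum CD166 libraries.

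Hormone genes of enteroendocrine cells were among the largest rises. These scattered cells release peptides that regulate acid, motility, bile and insulin secretion. Of 16 list entries, 12 were tested, since Gast, Insl5, Vip and Npw had too few counts. Of these, 6 were called higher (Sst, Iapp, Gip, Pyy, Sct and Gcg) and none lower, with a median of 2.08. Sst (ENSMUSG00000004366), which encodes the inhibitory hormone somatostatin, had 543 and 1067 CPM in CD166 cells, against 13.0, 28.3 and 41.6 CPM in crypt cells. It was 29.1-fold higher (log2 4.86 ± 0.52 SE, adjusted p = 0.000934). Iapp, encoding amylin, had 24.1 and 59.9 CPM in CD166 cells and 0.912, 1.36 and 1.03 CPM in crypt cells (log2 5.26 ± 0.57 SE, adjusted p = 0.000934). In both genes the lower CD166 library lay far above every crypt library.

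The Sst promoter is shown because this gene headed the ranked rises, and that of Iapp because Sst and Iapp were the 2 genes called by edgeR against LGR5 cells as well. The sequences are from RefSeq, build GRCm38.p6, and run from 250 bases before to 50 bases after the annotated start of each gene, 5′ to 3′ on the strand of the gene. Sst lies on the minus strand at chr16:23890795-23891094 and Iapp on the plus strand at chr6:142298175-142298474. Capitals mark the cAMP response element, searched as TGACGTCA, which reads the same on both strands. The Sst window holds 1 copy, whose first base lies 48 bases before the start, and the Iapp window holds none.
Sst: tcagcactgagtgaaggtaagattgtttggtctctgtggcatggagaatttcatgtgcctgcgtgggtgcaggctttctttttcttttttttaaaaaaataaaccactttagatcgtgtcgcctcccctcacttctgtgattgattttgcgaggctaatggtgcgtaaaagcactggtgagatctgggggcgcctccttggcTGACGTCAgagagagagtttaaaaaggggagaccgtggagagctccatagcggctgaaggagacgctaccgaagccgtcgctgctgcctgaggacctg
Iapp: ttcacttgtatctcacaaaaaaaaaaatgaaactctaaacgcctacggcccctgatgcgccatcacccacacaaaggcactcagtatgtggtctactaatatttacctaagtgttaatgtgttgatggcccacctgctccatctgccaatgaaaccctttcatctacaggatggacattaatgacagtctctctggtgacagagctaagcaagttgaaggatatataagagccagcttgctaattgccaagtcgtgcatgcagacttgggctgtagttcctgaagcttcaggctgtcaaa
Of 32851 such windows 1.79% hold the element, and of 27025 genes 2.03% have a window with it. In the hormone list 15 of the 16 genes had a window and 1 gene held it, Sst. In the immediate early list 20 of 26 genes had a window and 3 held it, Btg2, Dusp1 and Maff.

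Gip, encoding the glucose-dependent insulinotropic peptide, had 234 and 1400 CPM in CD166 cells and 10.9, 28.5 and 119 CPM in crypt cells (log2 3.95 ± 1.04 SE, adjusted p = 0.0423). The groups did not overlap, although CD166 2 was several times above CD166 1 and the library labelled ileum crypt 3 was the highest crypt library. Without that library Gip stood at log2 5.38 ± 1.11 SE (adjusted p = 0.0278). Sct, encoding secretin, rose 7.52-fold (log2 2.91 ± 0.43 SE, adjusted p = 0.00367), to 85.2 and 294 CPM in CD166 cells, against 21.1, 31.4 and 23.3 CPM in crypt cells. Pyy, an appetite-reducing peptide of the distal gut, had 36.6 and 84.6 CPM in CD166 cells against 6.84, 10.6 and 1.94 CPM in crypt cells (log2 3.24 ± 0.74 SE, adjusted p = 0.0261). Gcg, the proglucagon gene, stood at 339 and 367 CPM in CD166 cells and 56.2, 129.9 and 52.6 CPM in crypt cells (log2 2.15 ± 0.59 SE, adjusted p = 0.0461). Not every hormone followed. Chga, the granule protein chromogranin A often used as a general marker of these cells, had 61.2 and 113 CPM in CD166 cells and 56.3, 178 and 145 CPM in crypt cells, with overlap (log2 -0.54 ± 0.62 SE, adjusted p = 0.635). Nts, encoding neurotensin, had 19.7 and 38.3 CPM in CD166 cells and 40.9, 60.3 and 32.9 CPM in crypt cells (log2 -0.62 ± 0.81 SE, adjusted p = 0.681). Tac1, the tachykinin precursor gene, had 12.7 and 11.5 CPM in CD166 cells and 10.8, 29.99 and 18.4 CPM in crypt cells (log2 -0.71 ± 0.49 SE, adjusted p = 0.395). The levels of these 3 genes overlapped between the groups. Sst, Iapp and Sct were called in every fit that left out 1 library. Gip, Pyy and Gcg were lost without either CD166 library and without ileum crypt 1. Pyy and Gcg were lost with the library labelled ileum crypt 3 left out (adjusted p = 0.0684 and 0.143), Gip without ileum crypt 2, Gcg without either ileum LGR5 library, and Gip and Gcg without any 1 of 6 jejunal libraries.

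The list of transcription factors of this lineage also held called rises. Of 21 members, all tested, 11 were called higher, none lower and 10 not called (median 1.74). In 16 both CD166 libraries lay above all crypt libraries, beside 25.3% of all tested genes. Isl1, a LIM homeodomain factor, had 25.4 and 50.7 CPM in CD166 cells, against 3.99, 4.07 and 5.37 CPM in crypt cells (log2 3.08 ± 0.40 SE, adjusted p = 0.00219). Rfx6, required for hormone cells of gut and pancreas, had 21.2 and 41.1 CPM in CD166 cells and 4.22, 5.73 and 6.18 CPM in crypt cells (log2 2.54 ± 0.45 SE, adjusted p = 0.00883). Insm1, a zinc finger factor of endocrine precursors, was called (log2 2.09 ± 0.49 SE, adjusted p = 0.0286), as was Neurod1, a basic helix-loop-helix factor acting after Neurog3 (log2 1.74 ± 0.44 SE, adjusted p = 0.0363). Neurog3, the transient factor that starts the lineage, had 11.9 and 11.4 CPM in CD166 cells and 2.62, 7.99 and 10.3 CPM in crypt cells and was not called (log2 0.74 ± 0.69 SE, adjusted p = 0.543). The early factor Sox4 (log2 1.44 ± 0.43 SE, adjusted p = 0.0613) and the forkhead factor Foxa1 (log2 0.67 ± 0.49 SE, adjusted p = 0.422) were not called either. Without the library labelled ileum crypt 3, 4 members were called higher and the median was 1.85. Of the 11 calls, 5 held without CD166 1 and 1, Isl1, without CD166 2.

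Genes of hormone processing and regulated secretion held called rises too. Of 43 entries 40 were tested, of which 18 were called higher, none lower and 22 not called, with a median of 1.79, or 1.76 with genes at 0 in 1 group set to their bound. Cpe, a carboxypeptidase that trims prohormones, had 83.7 and 284 CPM in CD166 cells and 11.3, 31.2 and 31.0 CPM in crypt cells (log2 2.91 ± 0.57 SE, adjusted p = 0.0141). Pcsk1, a prohormone convertase, had 50.4 and 93.0 CPM in CD166 cells and 17.3, 21.4 and 20.6 CPM in crypt cells (log2 1.86 ± 0.34 SE, adjusted p = 0.0102). Abcc8, the sulfonylurea receptor subunit of the ATP-sensitive potassium channel, was 16.1-fold higher (log2 4.01 ± 0.51 SE, adjusted p = 0.00198), at 26.8 and 62.1 CPM in CD166 cells and 1.48, 3.92 and 2.97 CPM in crypt cells. Cacna1a, a calcium channel subunit, had 42.8 and 51.1 CPM in CD166 cells and 15.4, 15.4 and 13.4 CPM in crypt cells (log2 1.67 ± 0.20 SE, adjusted p = 0.00145), with little spread in either group. Cplx2, which regulates vesicle fusion, was called (log2 2.39 ± 0.38 SE, adjusted p = 0.00504), and so was the granin gene Scg2 (log2 3.25 ± 0.62 SE, adjusted p = 0.0123). Chgb, another granin, had 275 and 880.5 CPM in CD166 cells and 83.7, 312 and 342 CPM in crypt cells and was not called (log2 1.23 ± 0.71 SE, adjusted p = 0.308). The log2 difference was below 0 in 5 uncalled members, Trpa1, Rab3c, Tph1, Slc18a2 and Ddc. In the first 3 of these both CD166 libraries lay below every crypt library, as in 22.1% of all tested genes. Tph1, the serotonin synthesis enzyme of enterochromaffin cells, had 4.802 and 6.31 CPM in CD166 cells and 6.50, 15.8 and 14.3 CPM in crypt cells (log2 -1.13 ± 0.40 SE, adjusted p = 0.107). With the library labelled ileum crypt 3 left out there were 13 calls higher and a median of 1.74. Of the 18 calls, 15 held without CD166 1 but 2 without CD166 2, Abcc8 and Cacna1a.

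**Figure D2:**
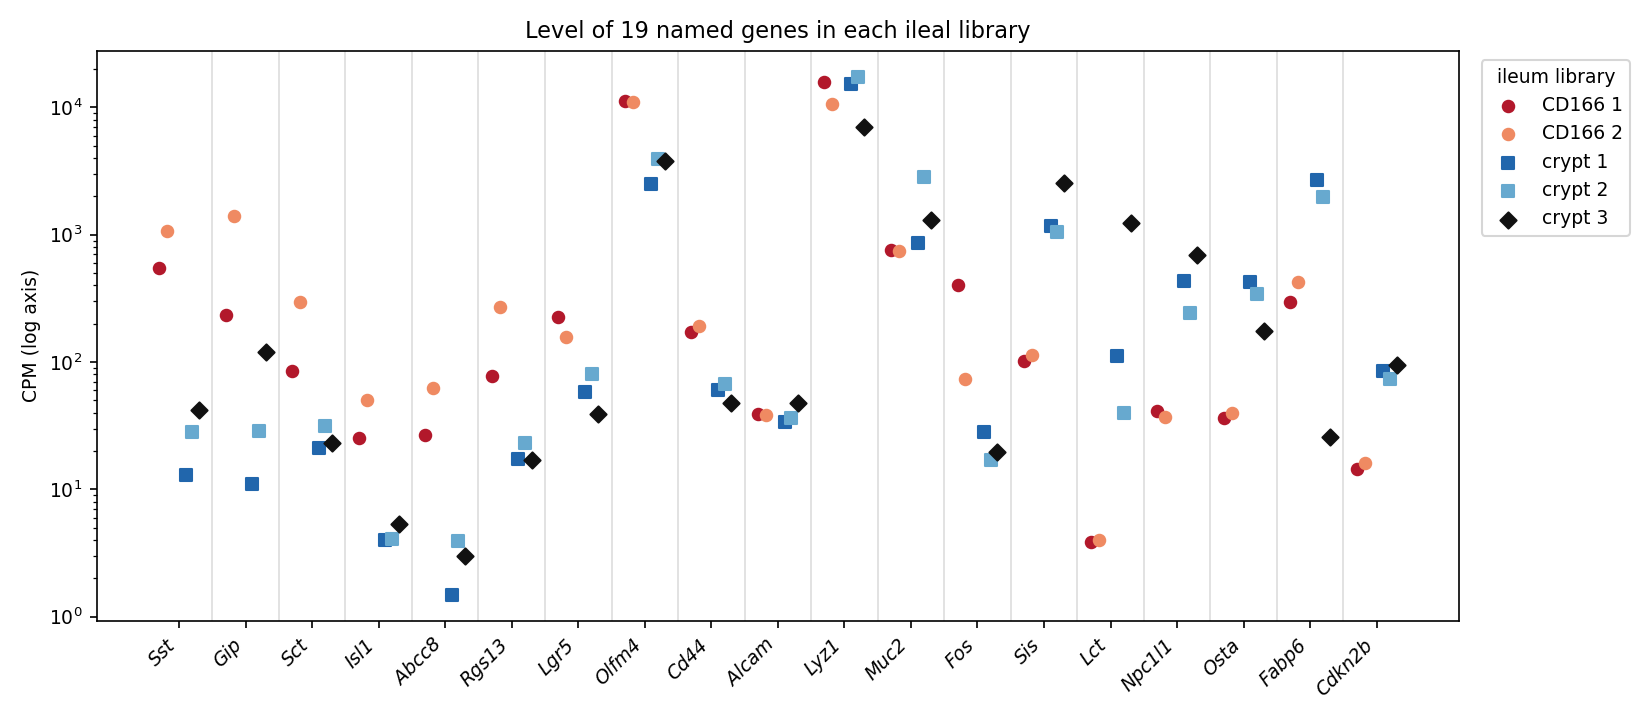
Level of 19 named genes in CPM on a log axis, with 1 point per library: circles for ileum CD166 1 and 2, squares for ileum crypt 1 and 2, and a black diamond for the library labelled ileum crypt 3. Sst lies at 543 and 1067 CPM in CD166 cells, above every crypt library, while Alcam and Lyz1 overlap between the groups.

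Some genes of tuft cells, the chemosensory cells of the epithelium, were called higher as well. All 25 members were tested, 8 were called higher, none lower and 17 not called, with a median of 1.89. In 18 both CD166 libraries lay above all crypt libraries, beside 25.3% of all tested genes. Trpm5, the cation channel of taste-like signalling, had 71.8 and 188 CPM in CD166 cells and 17.8, 27.1 and 36.3 CPM in crypt cells (log2 2.26 ± 0.53 SE, adjusted p = 0.0288). Rgs13, a regulator of G protein signalling, had 77.1 and 269.9 CPM in CD166 cells and 17.2, 23.1 and 17.0 CPM in crypt cells (log2 3.19 ± 0.70 SE, adjusted p = 0.0230). Pou2f3, the transcription factor needed for tuft cells, was called (log2 2.18 ± 0.56 SE, adjusted p = 0.0379), as were Alox5ap, which serves leukotriene synthesis (log2 2.51 ± 0.48 SE, adjusted p = 0.0120), and the actin-binding Avil (log2 2.30 ± 0.63 SE, adjusted p = 0.0468). Dclk1, a kinase widely used as the tuft marker, had 73.3 and 187 CPM in CD166 cells and 20.9, 38.6 and 46.5 CPM in crypt cells, without overlap and without a call (log2 1.89 ± 0.61 SE, adjusted p = 0.0838). In each of these genes CD166 2 was above CD166 1. No tuft call held without CD166 2, 4 held without CD166 1, and Alox5ap alone held with the library labelled ileum crypt 3 left out (adjusted p = 0.0356), where the median was 1.97. Without ileum crypt 1 or without either jejunum LGR5 library 2 of the 8 held, and without ileum crypt 2 the count was 3.

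Paneth and goblet cell genes gave 1 call in edgeR, in the goblet list. Of 16 alpha-defensin entries, 12 were in the files and 9 were tested. Of those, 0 were called by edgeR (median 0.64), and 9 had a log2 difference above 0. In 7 of them both CD166 libraries lay above all crypt libraries, beside 25.3% of all tested genes. Without the library labelled ileum crypt 3 the median was 0.31. The most abundant, Defa24, had 13782 and 15091 CPM in CD166 cells and 9908, 11883 and 5954 CPM in crypt cells (log2 0.64 ± 0.51 SE, adjusted p = 0.473). Defensin genes are near-identical and their reads may be shared, which makes such levels uncertain. Lyz1, the Paneth cell lysozyme gene, had 15734 and 10551 CPM in CD166 cells and 15387, 17424 and 7018 CPM in crypt cells (log2 -0.01 ± 0.54 SE, adjusted p = 0.991). The 13 other tested Paneth genes gave 0 calls in edgeR, with a median of -0.01. Goblet cells gave 1 call higher among 20 tested members (median 0.40). It was Retnlb, encoding an antibacterial resistin-like protein, at 5.72 and 11 CPM in CD166 cells and 1.94, 0.301 and 0.915 CPM in crypt cells (log2 2.95 ± 0.76 SE, adjusted p = 0.0397). That call was lost without either CD166 library, without ileum crypt 2, without the library labelled ileum crypt 3 and without any 1 of the jejunum CD166 or LGR5 libraries. Other goblet genes did not pass. Muc2, the main gel-forming mucin, had 758 and 747 CPM in CD166 cells and 856, 2829 and 1312 CPM in crypt cells (log2 -1.15 ± 0.66 SE, adjusted p = 0.302), and both CD166 libraries lay below all crypt libraries.

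Genes of mature enterocytes were lower throughout. Of 26 members, all tested, 21 were called lower and none higher, with a median of -2.79. In 25 both CD166 libraries lay below all crypt libraries, beside 22.1% of all tested genes. The crypt cells, labelled as stem cells, thus carried transcripts of mature absorptive cells beside those of Lgr5. Sis (ENSMUSG00000027790), the sucrase-isomaltase of the brush border, had 102 and 114 CPM in CD166 cells, against 1174, 1049 and 2544 CPM in crypt cells. It was 14.7-fold lower (log2 -3.88 ± 0.42 SE, adjusted p = 0.000934). Anpep, an aminopeptidase, had 177 and 154 CPM in CD166 cells and 2395, 1767 and 4172 CPM in crypt cells (log2 -4.07 ± 0.50 SE, adjusted p = 0.00158). Alpi, the intestinal alkaline phosphatase gene, had 9.88 and 8.73 CPM in CD166 cells and 208, 137 and 391 CPM in crypt cells (log2 -4.72 ± 0.74 SE, adjusted p = 0.00504). In these 3 genes both CD166 libraries lay far below every crypt library. Vil1, a structural protein of microvilli made along the whole axis, fell less (log2 -1.38 ± 0.30 SE, adjusted p = 0.0210). Lct, the lactase gene, showed the largest fall of the list, with 3.88 and 4.02 CPM in CD166 cells against 112, 39.9 and 1237 CPM in crypt cells (log2 -6.87 ± 1.46 SE, adjusted p = 0.0201). Its crypt level was set by the library labelled ileum crypt 3, and without it the difference was -4.26 ± 0.68 SE (adjusted p = 0.00767). Mgam, encoding maltase-glucoamylase, had 867 and 893 CPM in CD166 cells and 1223, 1363 and 1393 CPM in crypt cells and was not called (log2 -0.59 ± 0.25 SE, adjusted p = 0.162). With the library labelled ileum crypt 3 left out, 20 members were called lower and the median was -2.58. Of the 21 calls, 5 held without CD166 1 and 5 without CD166 2, while all 21 held in every fit that left out another library apart from the library labelled ileum crypt 3.

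Fat absorption was lower in the same way. Of 22 members, all tested, 16 were called lower and none higher (median -2.83). Npc1l1, which imports dietary cholesterol, had 41.1 and 37.2 CPM in CD166 cells and 431, 243 and 688 CPM in crypt cells (log2 -3.54 ± 0.39 SE, adjusted p = 0.000934). Apoa1, an apolipoprotein, had 65.7 and 102 CPM in CD166 cells and 2025, 1019 and 2939 CPM in crypt cells (log2 -4.57 ± 0.75 SE, adjusted p = 0.00630). Mttp, which loads lipid onto apolipoprotein B, had 58.8 and 75.8 CPM in CD166 cells and 476, 432 and 2016 CPM in crypt cells (log2 -3.86 ± 0.64 SE, adjusted p = 0.00660), and Apob itself was called as well (log2 -3.00 ± 0.52 SE, adjusted p = 0.00812). No CD166 library reached the lowest crypt library in these genes. Apoa4, a chylomicron apolipoprotein, had 15.7 and 19.1 CPM in CD166 cells and 151, 188 and 3392 CPM in crypt cells (log2 -6.16 ± 1.56 SE, adjusted p = 0.0372). The library labelled ileum crypt 3 was by far the highest, and the difference was -3.28 ± 0.80 SE without it (adjusted p = 0.0556). Mttp was -2.75 ± 0.25 SE without that library and kept its call (adjusted p = 0.000566). In all, 13 members were called lower without it, with a median of -2.12. Of the 16 calls, 8 held without CD166 1 and 4 without CD166 2.

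**Figure D3:**
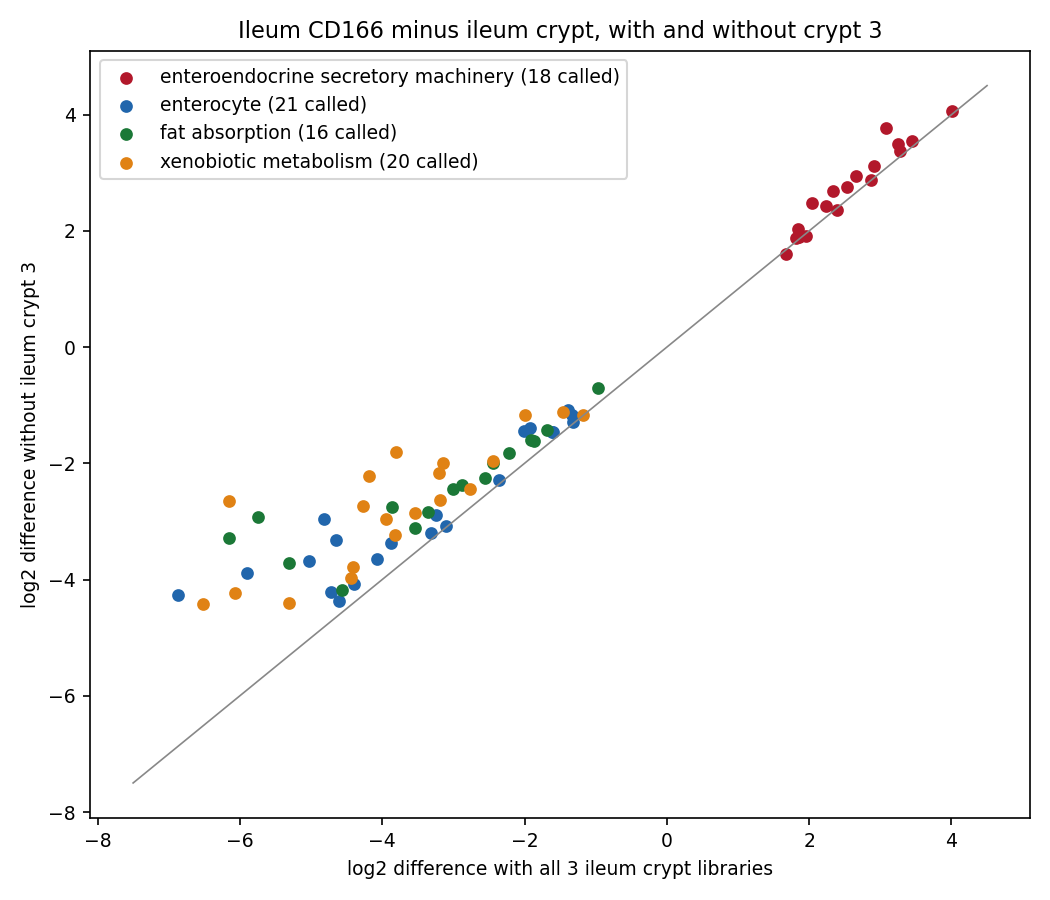
Log2 difference, ileum CD166 minus ileum crypt, with all 3 crypt libraries (x axis) and without the library labelled ileum crypt 3 (y axis), for the called members of 4 lists; the line marks equal values. Genes of enteroendocrine secretory machinery lie near the line, while fat, xenobiotic and some enterocyte genes lie above it at the left, as Apoa4 does (-6.16 with and -3.28 without).

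Genes of ileal bile acid handling were lower too, with 5 of 14 tested members called lower and none higher (median -2.14). Osta, a subunit of the basolateral bile acid exporter, had 36.6 and 40.04 CPM in CD166 cells, against 425, 342 and 175 CPM in crypt cells (log2 -3.03 ± 0.33 SE, adjusted p = 0.000934). Cubn, the cobalamin uptake receptor cubilin, had 4.06 and 3.63 CPM in CD166 cells and 203, 122 and 159 CPM in crypt cells (log2 -5.39 ± 0.68 SE, adjusted p = 0.00188). Fabp6 had 298 and 424 CPM in CD166 cells and 2688, 1987 and 25.8 CPM in crypt cells. It was not called with the library labelled ileum crypt 3 (log2 -2.12 ± 1.48 SE, adjusted p = 0.400) nor without it (log2 -2.70 ± 1.11 SE, adjusted p = 0.211). Without that library 7 members were called lower, among them the bile acid receptor gene Nr1h4 and the apical transporter gene Slc10a2, and the median was -2.25. Of the 5 calls, 2 held without CD166 1 and 1, Osta, without CD166 2.

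Xenobiotic metabolism gave 20 of 32 tested members called lower and none higher (median -3.19). Ces2e, a carboxylesterase, had 66.3 and 79.7 CPM in CD166 cells and 453, 455 and 1080 CPM in crypt cells (log2 -3.18 ± 0.42 SE, adjusted p = 0.00219). Cyp3a11, a drug-oxidising cytochrome, had 3.05 and 4.02 CPM in CD166 cells and 93.5, 39.3 and 582 CPM in crypt cells (log2 -6.07 ± 1.501 SE, adjusted p = 0.0349). Maoa, monoamine oxidase A, had 309 and 281 CPM in CD166 cells and 619, 655 and 1152 CPM in crypt cells (log2 -1.45 ± 0.29 SE, adjusted p = 0.0154). Values of Ces and Cyp genes are uncertain, since near-identical copies may share reads. Cyp2b10 depended on the library labelled ileum crypt 3, with 2.31 and 1.15 CPM in CD166 cells and 10.1, 11 and 338 CPM in crypt cells. It was -2.65 ± 0.81 SE without that library (adjusted p = 0.106), against -6.15 ± 1.71 SE with it (adjusted p = 0.0496). Cyp3a11 also lost its call without it (-4.22 ± 1.13 SE, adjusted p = 0.0734). There were then 14 calls lower and a median of -2.004. Of the 20 calls, 1 held without CD166 1 and 2 without CD166 2.

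Transcripts of blood cells separated the groups widely. Of 5 tested red blood cell genes, 5 were called lower, with a median of -7.59. Their summed level was 2.40 and 1.21 CPM in CD166 cells and 307, 430.3 and 43.0 CPM in crypt cells. Hbb-b1, a beta globin gene, had 1.20 and 0.638 CPM in CD166 cells and 168, 218 and 21.2 CPM in crypt cells (log2 -7.23 ± 1.10 SE, adjusted p = 0.00419). Globin gene values are uncertain between near-identical copies. All 5 calls held without the library labelled ileum crypt 3, 2 held without CD166 1 and none without CD166 2.

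Markers of T cells and intraepithelial lymphocytes, which sit among the enterocytes, numbered 24 tested members, of which 7 were called lower and none higher. The median was -6.20, or -6.14 with Cd8b1, at 0 in both CD166 libraries, set to its bound. The summed level was 10.1 and 65.7 CPM in CD166 cells and 4607, 199.9 and 1233 CPM in crypt cells, so the crypt libraries differed widely among themselves. Gzmb, the cytotoxic granzyme B, had 0.831 and 3.76 CPM in CD166 cells and 451, 9.19 and 189 CPM in crypt cells (log2 -6.50 ± 1.78 SE, adjusted p = 0.0473). Ccl5, a chemokine of these cells, had 0.923 and 3.06 CPM in CD166 cells and 461, 9.80 and 134 CPM in crypt cells (log2 -6.60 ± 1.75 SE, adjusted p = 0.0428). None of the 7 calls held without the library labelled ileum crypt 3 or without either CD166 library, and 1 held without ileum crypt 1 or without any 1 LGR5 or jejunum CD166 library. The part of these lymphocyte and blood transcripts in the differences of other genes was not tested. Enterocyte genes summed to 3924 and 4208 CPM in CD166 cells and 15013, 11504 and 22320 CPM in crypt cells.

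Lists of other cells of the gut wall differed in their calls. Of all tested genes 3.23% were called higher and 5.14% lower. Of 10 tested B and plasma cell genes, and of 3 tested genes of glia and neurons, 0 were called by edgeR. Igj, the joining chain of secreted antibodies, had 0 and 1251 CPM in CD166 cells and 10.6, 21.3 and 1.60 CPM in crypt cells, so that 1 CD166 library carried nearly all of it. Of 18 tested stromal genes, 3 collagen genes were called lower, Col1a1, Col1a2 and Col3a1, each at most 1.94 CPM in CD166 cells and between 6.63 and 20.7 CPM in crypt cells. None of these calls held without CD166 2, without ileum crypt 1, without the library labelled ileum crypt 3 or without any 1 of the jejunum CD166 or LGR5 libraries. The 18 tested myeloid genes had a median of -1.49, with 15 log2 differences below 0 and 3 above. Cd14, the lipopolysaccharide co-receptor, was their only call and went against that median. It was higher at 24.7 and 32.2 CPM in CD166 cells against 9.46, 13.6 and 6.52 CPM in crypt cells (log2 1.53 ± 0.31 SE, adjusted p = 0.0160). It was lost without either CD166 library. Of 7 tested endothelial genes, Esam (log2 1.67 ± 0.37 SE, adjusted p = 0.0243) and Vwf (log2 2.00 ± 0.49 SE, adjusted p = 0.0322) were called higher, while the defining genes Pecam1 and Cdh5 were not called and stood at 2.12 CPM or less in CD166 cells. Both endothelial calls were lost without either CD166 library, without ileum crypt 1 and without the library labelled ileum crypt 3, and Vwf also without any 1 of the LGR5 or jejunum CD166 libraries.

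**Figure D4:**
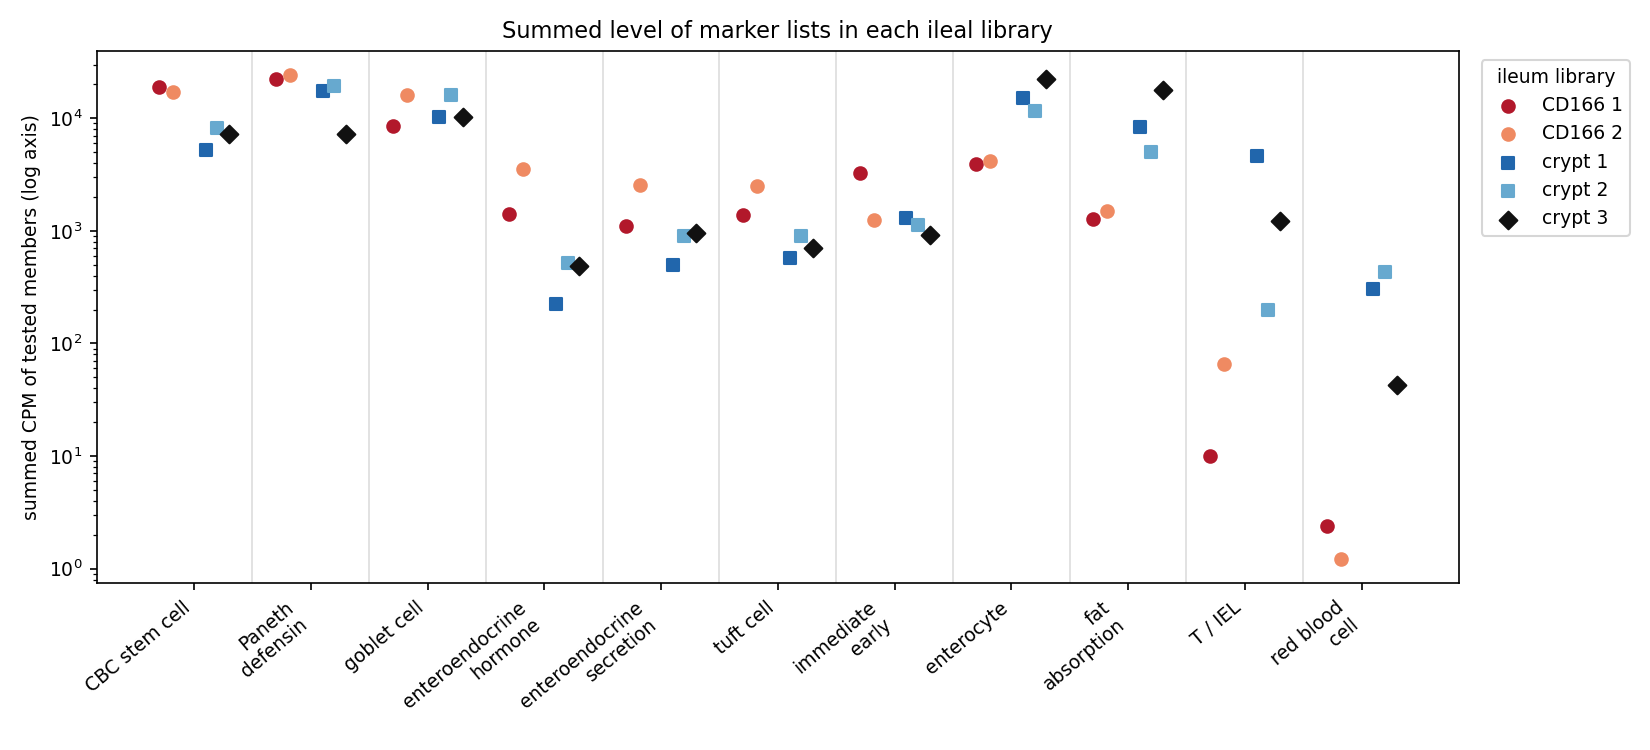
Summed CPM of the tested members of 11 lists on a log axis, with 1 point per library: circles for ileum CD166, squares for ileum crypt 1 and 2, and a black diamond for the library labelled ileum crypt 3. T cell and intraepithelial lymphocyte (IEL) genes sum to 10.1 and 65.7 CPM in CD166 cells, against 4607, 200 and 1233 CPM in crypt cells; CBC stands for crypt base columnar.

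Lists of cell division genes gave between 1 and 3 calls each. Of all tested genes 3.23% were called higher and 5.14% lower. Of 28 tested proliferation genes, 1 was called, Cenpa, a centromeric histone (log2 0.66 ± 0.16 SE, adjusted p = 0.0339), and the median was 0.34. In 22 members both CD166 libraries lay above all crypt libraries, beside 25.3% of all tested genes. Mki67, which encodes the Ki-67 antigen, had 400.4 and 407 CPM in CD166 cells and 290.1, 361 and 368 CPM in crypt cells (log2 0.25 ± 0.45 SE, adjusted p = 0.775). Of 26 tested DNA replication genes, 2 were called higher, the clamp loader gene Rfc3 (log2 0.83 ± 0.19 SE, adjusted p = 0.0239) and the helicase subunit gene Gins1 (log2 0.95 ± 0.22 SE, adjusted p = 0.0283), with a median of 0.53. None of these 3 calls held without either CD166 library or without the library labelled ileum crypt 3. Of 16 tested cell cycle inhibitors and p53 targets, 3 were called lower and none higher (median -0.09). Cdkn2b, the inhibitor p15 of cyclin D kinases, had 14.5 and 16 CPM in CD166 cells and 85.6, 73.3 and 95.3 CPM in crypt cells (log2 -2.47 ± 0.24 SE, adjusted p = 0.000645). Its call held in every fit that left out 1 library. Cdkn1a, the inhibitor p21, had 41.8 and 58.3 CPM in CD166 cells and 108, 118 and 122 CPM in crypt cells (log2 -1.21 ± 0.30 SE, adjusted p = 0.0351), and the stress gene Sesn1 was called lower as well (log2 -1.34 ± 0.30 SE, adjusted p = 0.0235). Both of these were lost without either CD166 library and without the library labelled ileum crypt 3, and Cdkn1a also without ileum crypt 2 and without either jejunum LGR5 library.

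In the signalling lists, 2 of 24 tested Wnt genes, 3 of 19 Notch genes and 4 of 13 Eph and ephrin genes were called. Of all tested genes 8.37% were. Of the Wnt targets, Cd44 and Ephb3 were called higher (median 0.53), while Axin2, a feedback inhibitor, had 424 and 283 CPM in CD166 cells and 122, 224 and 138 CPM in crypt cells (log2 1.13 ± 0.47 SE, adjusted p = 0.156). In the Notch list, the receptor gene Notch1 was called higher, with 126 and 108 CPM in CD166 cells and 54.4, 54.6 and 54.5 CPM in crypt cells (log2 1.10 ± 0.25 SE, adjusted p = 0.0235). Hes6, a basic helix-loop-helix gene, was called higher too (log2 0.97 ± 0.25 SE, adjusted p = 0.0373). Dtx1, also expressed by lymphocytes, was called lower at 0.185 and 1.15 CPM in CD166 cells and 79.9, 7.23 and 14.6 CPM in crypt cells (log2 -5.55 ± 1.54 SE, adjusted p = 0.0494). Among Eph receptors and ephrins, which keep crypt cells in position, Ephb3 and Epha7 were called higher and Epha1 (log2 -1.08 ± 0.25 SE, adjusted p = 0.0271) and Efnb2 (log2 -1.40 ± 0.32 SE, adjusted p = 0.0252) lower. None of the Notch and Eph calls held without either CD166 library or without the library labelled ileum crypt 3.

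Of 14 tested genes of defence and redox, Nox1 and Retnlb were called higher and Reg3a lower (median -0.17). The shares over all tested genes were 3.23% called higher and 5.14% called lower. Nox1, an epithelial NADPH oxidase, stood at 52.4 and 51.9 CPM in CD166 cells against 7.98, 11.5 and 5.15 CPM in crypt cells (log2 2.68 ± 0.58 SE, adjusted p = 0.0215). Reg3a, an antimicrobial lectin of the Reg family, whose members may share reads, was lower (log2 -4.13 ± 0.77 SE, adjusted p = 0.0114), at 7.29 and 11.1 CPM in CD166 cells and 60.3, 96.5 and 329 CPM in crypt cells. Neither held without CD166 1 or without CD166 2, and Nox1 was lost with the library labelled ileum crypt 3 left out (adjusted p = 0.0748). Reg3a was then at log2 -3.08 ± 0.52 SE (adjusted p = 0.0102). Of 28 tested positional factors, 2 were called lower and 1 higher, near the shares over all tested genes (median 0.31). Hnf4g, an enterocyte nuclear receptor, was called lower (log2 -1.88 ± 0.32 SE, adjusted p = 0.00687), as was the T-box gene Tbx3 (log2 -0.90 ± 0.24 SE, adjusted p = 0.0429). Hoxa3 was called higher (log2 2.01 ± 0.41 SE, adjusted p = 0.0158). These 3 calls were lost without either CD166 library, and Tbx3 also without any 1 ileum crypt library. Gata4, a factor of the proximal intestine, had 11.8 and 11.5 CPM in CD166 cells and 28.0, 45.4 and 233 CPM in crypt cells (log2 -3.13 ± 0.88 SE, adjusted p = 0.0513). The library labelled ileum crypt 3 was its highest, and with that library left out the difference of Gata4 was -1.65 ± 0.54 SE (adjusted p = 0.126).

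**Figure D5:**
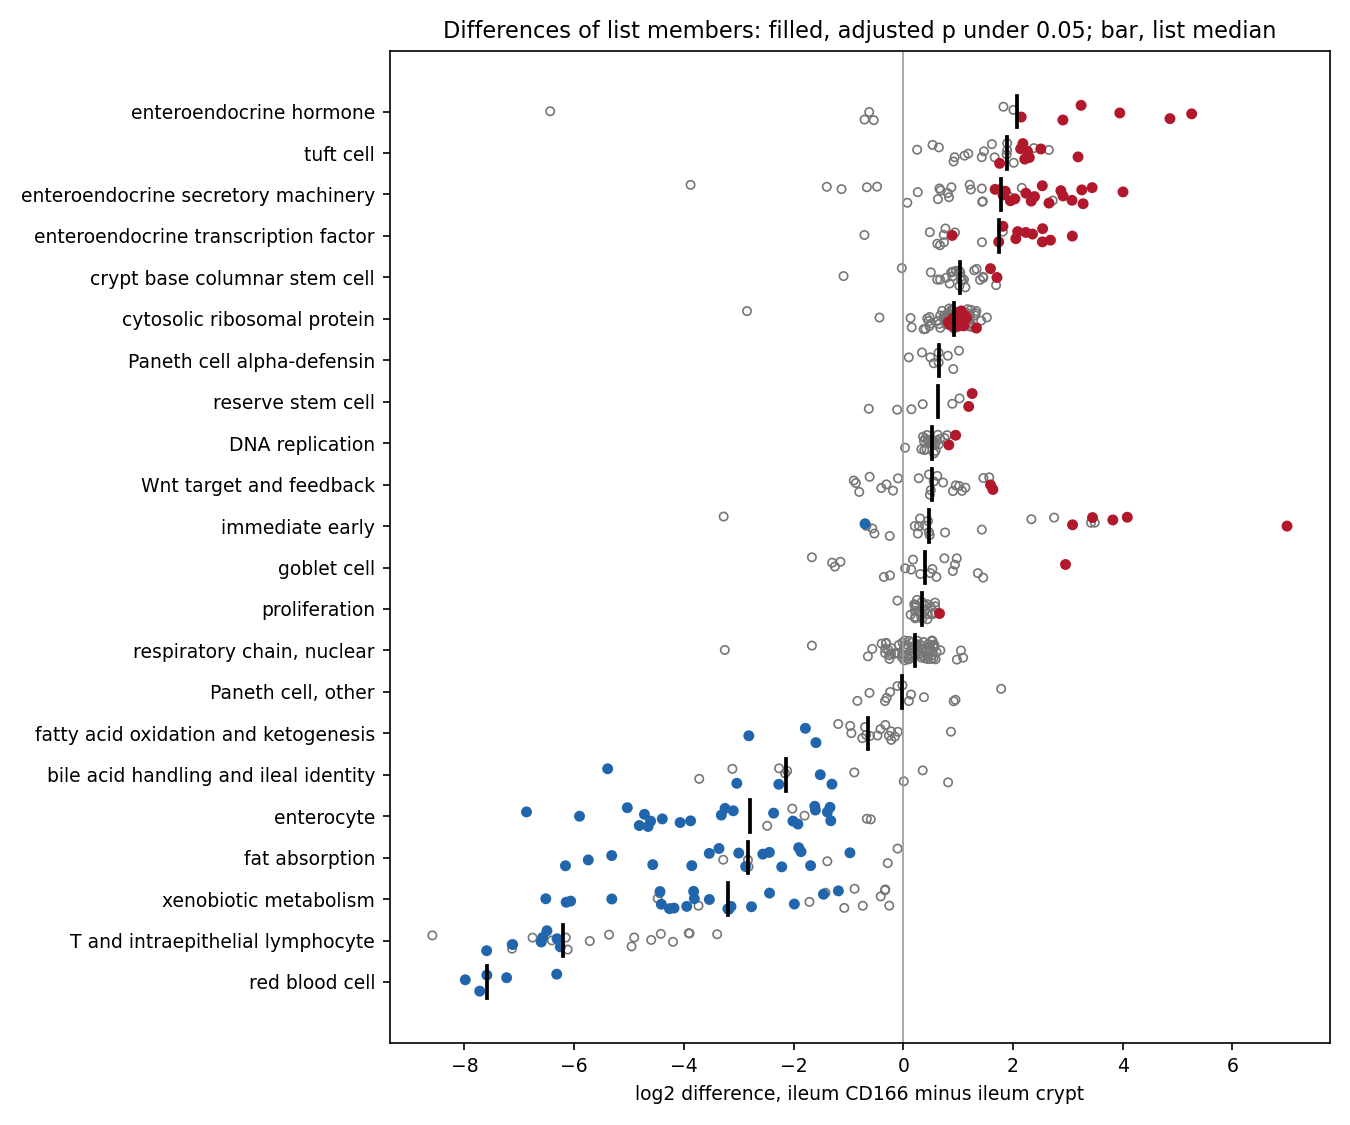
Log2 difference, ileum CD166 minus ileum crypt, of every tested member of 22 lists (points, with vertical jitter for display), filled red if called higher, filled blue if called lower and open if not called; black bars are list medians. Medians run from 2.08 for enteroendocrine hormones to -7.59 for red blood cell genes.

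Immediate early genes, which respond within minutes to growth factors and to stress, differed between the CD166 libraries. Of 25 tested members, 5 were called higher, 1 lower and the median was 0.47. Fos (ENSMUSG00000021250), a subunit of the AP-1 factor, had 399.7 and 73.2 CPM in CD166 cells, against 28.2, 16.9 and 19.7 CPM in crypt cells (log2 3.45 ± 0.78 SE, adjusted p = 0.0252). Egr1, a zinc finger factor, had 426 and 85.6 CPM in CD166 cells and 25.3, 10.7 and 9.03 CPM in crypt cells (log2 4.08 ± 0.89 SE, adjusted p = 0.0220). Jun (log2 3.09 ± 0.64 SE, adjusted p = 0.0173) and the phosphatase gene Dusp1 (log2 3.82 ± 0.85 SE, adjusted p = 0.0235) were called as well. Fosb had 129 and 30.7 CPM in CD166 cells and 0.912, 0.151 and 0.686 CPM in crypt cells (log2 6.997 ± 1.09 SE, adjusted p = 0.00484) and was the one member called in every fit that left out 1 library. CD166 1 was above CD166 2 in each of these genes, by several fold, and both were above every crypt library. Fosl2, another AP-1 gene, was called lower (log2 -0.70 ± 0.19 SE, adjusted p = 0.0459). LGR5 cells of the ileum, also a sorted population, had 319 and 151 CPM of Fos and 312 and 117 CPM of Egr1, above all 3 crypt libraries. No sort marker is given for the crypt cells, so sorting and cell population cannot be told apart in these genes. Of the 6 calls, Fosb alone held without CD166 1 and Fosb alone without the library labelled ileum crypt 3, and 2 held without ileum crypt 2.

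Some ribosomal protein genes were called higher. Of 80 tested cytosolic ribosomal protein genes, 19 were called higher, none lower and 61 not called, with a median of 0.92. Of all tested genes 3.23% were called higher. In 75 list members both CD166 libraries lay above all crypt libraries, beside 25.3% of all tested genes. Rpl3 had 2695 and 2918 CPM in CD166 cells and 1565, 1761 and 1439 CPM in crypt cells (log2 0.82 ± 0.22 SE, adjusted p = 0.0461). The summed level of the list was 96936 and 116783 CPM in CD166 cells and 56392, 64037 and 46927 CPM in crypt cells. None of the 19 calls held without either CD166 library or without the library labelled ileum crypt 3, where the median was 0.82, and 2 held without ileum crypt 1 or without either jejunum LGR5 library. Genes of the nuclear-encoded respiratory chain gave 0 calls by edgeR among 74 tested (median 0.21). The lists of MHC class II (10 tested), interferon response (20) and heat shock (21) also gave 0 calls by edgeR, with medians of 0.92, 0.04 and 0.06. Of 20 tested genes of fatty acid oxidation 3 were called lower (5.14% of all tested genes were), and of 23 genes of cholesterol synthesis 2 were, Sc5d and Stard4. None of these 5 calls held without either CD166 library, 1 of each list held without the library labelled ileum crypt 3, and Stard4 was also lost without any 1 library other than jejunum crypt 1 and 2. Ceacam20, a microvillus adhesion gene, was the steadiest of 2 called among 21 tight junction and adhesion genes, lower at 7.20 and 6.82 CPM in CD166 cells against 111, 55.3 and 65.2 CPM in crypt cells (log2 -3.46 ± 0.42 SE, adjusted p = 0.00145).

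CD166 cells were also set against LGR5 cells of the ileum, the other sorted population of the same region (2 libraries each). In edgeR 2 of 14750 genes were called (0.0136%), both higher in CD166 cells, and 852 had an unadjusted p under 0.05. Sst had 543 and 1067 CPM in CD166 cells and 15.1 and 32.8 CPM in LGR5 cells (log2 5.07 ± 0.62 SE, adjusted p = 0.0370 for CD166 minus LGR5). Iapp had 24.1 and 59.9 CPM in CD166 cells and 0.276 and 1.08 CPM in LGR5 cells (log2 5.97 ± 0.71 SE, adjusted p = 0.0370). DESeq2 called 82 genes. The edgeR count was 0 without CD166 2, without either LGR5 library of the ileum and without several other single libraries, and 15 without CD166 1. Lgr5 itself had 227 and 158 CPM in CD166 cells and 339 and 123 CPM in LGR5 cells (log2 -0.26 ± 0.51 SE, adjusted p = 0.948). Gip had 234 and 1400 CPM in CD166 cells and 5.79 and 42.8 CPM in LGR5 cells (log2 5.07 ± 1.29 SE, adjusted p = 0.442). Defa24 had 13782 and 15091 CPM in CD166 cells and 2589 and 2742 CPM in LGR5 cells (log2 2.44 ± 0.60 SE, adjusted p = 0.393). Relative to the same 3 crypt libraries, LGR5 cells had 828 calls (5.61%), 221 higher (1.5%) and 607 lower (4.12%), and the 2 sets of calls share those controls. The stem cell list had 7 of 27 members called higher in LGR5 cells, with a median of 1.32, beside 2 and 1.04 in CD166 cells. The tuft list had 2 of 25 called higher in LGR5 cells, with a median of 1.88, beside 8 and 1.89 in CD166 cells. The enteroendocrine hormone list had 0 of 12 called by edgeR in LGR5 cells, with a median of -0.74, beside 6 and 2.08 in CD166 cells. The enterocyte list had 21 of 26 called lower in either population. Summed enterocyte levels were 3924 and 4208 CPM in CD166 cells and 4608 and 4173 CPM in LGR5 cells. Dclk1 had 73.3 and 187 CPM in CD166 cells and 59.5 and 205 CPM in LGR5 cells (log2 -0.02 ± 0.67 SE, adjusted p = 1.00).

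The last comparison asked whether CD166 cells differ from crypt cells by another amount in the ileum than in the jejunum. In edgeR 0 of 14750 genes passed the test of that interaction (0%), with 503 at an unadjusted p under 0.05, 21 calls by DESeq2 and 0 by limma-voom. The edgeR count was 17 without ileum crypt 1. In the jejunum 2652 genes were called for CD166 minus crypt (18%), 1164 higher (7.89%) and 1488 lower (10.1%), from 2 and 3 other libraries. Of the stem cell list 15 of 27 members were called higher there, with a median of 1.41, beside 1.04 in the ileum. Of the enteroendocrine secretory list 36 of 40 were called higher (median 2.95, beside 1.79 in the ileum), and of the enterocyte list 24 of 26 were called lower (median -3.04, beside -2.79). The medians of these lists thus had the same sign in both regions, while those of some other lists did not. The median of the 13 other Paneth genes was -0.01 in the ileum and 1.63 in the jejunum, with 0 and 5 called higher by edgeR. That of the nuclear-encoded respiratory chain was 0.21 and -0.47, and that of the interferon response 0.04 and -0.88. The log2 difference of Sst was 4.86 in the ileum and 4.96 in the jejunum, that of Isl1 3.08 and 4.61, and that of Sis -3.88 and -3.00. Chga was -0.54 in the ileum and 2.41 in the jejunum (interaction log2 -2.95 ± 0.88 SE, adjusted p = 0.992), where it had 606 and 705 CPM in CD166 cells and 156, 40.3 and 174 CPM in crypt cells. Pyy was 3.24 in the ileum and 0.38 in the jejunum (interaction log2 2.86 ± 1.15 SE, adjusted p = 0.992). Neither passed the adjustment, so no difference between the regions was detected for these genes with this number of libraries.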

How the data were processed

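RNA was sequenced as single-end reads of 50 bp (TruSeq libraries, HiSeq 2000), per the labels' protocols. The submitters' processing notes name mm9 and DESeq, and the sources used here name neither an aligner nor a counter. The authors deposited, for each library, estimated counts for 36401 genes (33018 distinct symbols), of which 50.6% of non-zero values were whole within 0.001. These values need not be whole and sum to 6295828 to 20380369 per library. The authors also deposited log2 values. Up to a constant per gene and a constant per library, they matched the log2 of the same counts within 9.7e-07. That check covered the 8826 genes above 50 counts throughout. Reads shared between near-identical genes may have been split or lost, and whether counting used strand is not given.

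Counts were rounded and analysed with edgeR 4.0.16 in R 4.3.3. Genes were kept by filterByExpr (minimum count 10, minimum total 15), libraries scaled by TMM, and a robust quasi-likelihood model with 6 group means fitted to all 14 libraries. P-values were adjusted by the Benjamini-Hochberg method over all tested genes, with a threshold of 0.05. The standard error (SE) is the log2 difference divided by the square root of the F statistic. Alternatives included limma 3.58.1, DESeq2 1.42.0, other filters and scalings, and leaving out each library. Counts were simulated with the depths of all 14 libraries, and genes were changed in ileum CD166 only. The changed genes were drawn from those above a minimum mean level, so recovery at low levels was not simulated. For the ileal comparison the procedure recovered 21% of 100 genes changed 2-fold and 77% of 100 changed 4-fold among 14395 tested, with 4 unchanged genes called.

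Members and gene lists were chosen with earlier results of these data known, so list counts are not independent evidence. Named genes are the 12 largest called differences in each direction at a mean log2 CPM of at least 3 without overlap, up to 5 called and 3 uncalled members of each list by level, and fixed markers. Fosb, Iapp, Neurog3, Tac1, Tph1, Trpa1, Rab3c, Slc18a2, Btg2, Maff, Nr1h4, Slc10a2, Hoxb9, Cdh5, Cd8b1, members listed only as called in every fit or as uncalled, and the genes of the closing observations were chosen after their values were seen. Promoter sequences come from RefSeq, build GRCm38.p6. Gene coordinates of the build of the files were not used here.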

Additional observations from a re-analysis of the deposited data

How the results depend on the processing

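The number of genes called for CD166 minus crypt (1235) stayed within 1.5 times under 5 settings other than leaving out a library, including 1255 with DESeq2 size factors, 1238 with a filter of 1 CPM in 2 libraries, 1228 with limma-voom and 886 with the 7 ileal libraries alone. It was 801 with no filter, 2400 with the DESeq2 test, 185 with the 5 compared libraries alone, 795 with limma on the deposited log2 values, 524 without ileum crypt 3 and jejunum crypt 1, and 2680 without the crypt libraries high in Xist (ileum crypt 1 and jejunum crypt 2). An alternative chosen after seeing the data, the compared libraries alone without the library labelled ileum crypt 3, gave 510. Leaving out 1 library at a time gave 81 to 2637. For CD166 minus LGR5 (2 calls), no filter gave 8, the DESeq2 test 82, limma-voom 1, the 4 compared libraries alone 17, leaving out ileum crypt 3 and jejunum crypt 1 6, leaving out the Xist-high crypts 9, and limma on the log2 values 0. Leaving out 1 library gave 0 to 15. For the interaction (0 calls), the DESeq2 test gave 21, leaving out ileum crypt 3 and jejunum crypt 1 gave 7, leaving out the Xist-high crypts gave 40, and leaving out 1 library gave 0 to 17. The cause of these moves was not tested. Groups share replicate numbers, so a fit with a replicate block within region was made: it called 551 genes for CD166 minus crypt, 20 for CD166 minus LGR5 and 0 for the interaction. Deviations of CD166 and crypt libraries of the same number had r = -0.1153 for number 1 and -0.0146 for number 2, across genes. With 2 CD166 libraries their deviations from the group mean are mirror images. The crypt mean also includes the library labelled ileum crypt 3. This check therefore cannot decide whether the number pairs the libraries. With 2 libraries against 3, a 2-fold difference was recovered in 21% of simulated cases, so uncalled genes may differ by that much.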

Other observations

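Among genes outside the lists, several were called in all 14 fits that left out 1 library, and the ones given here were chosen after their values were seen. Th, which encodes tyrosine hydroxylase of catecholamine synthesis, had 4.62 and 8.80 CPM in CD166 cells, against 0.228, 0.301 and 0.457 CPM in crypt cells (log2 4.30 ± 0.60 SE, adjusted p = 0.00271). Accn5, an acid-sensing type ion channel gene, had 15.4 and 77.4 CPM in CD166 cells and 0.798, 2.11 and 1.26 CPM in crypt cells (log2 5.09 ± 0.61 SE, adjusted p = 0.00145). Pla2g4a, a phospholipase that releases arachidonic acid, had 101 and 125 CPM in CD166 cells and 25, 33.3 and 21.2 CPM in crypt cells (log2 2.09 ± 0.22 SE, adjusted p = 0.000934). Cd320, the transcobalamin receptor gene, had 33.1 and 38 CPM in CD166 cells and 10.6, 11 and 11.6 CPM in crypt cells (log2 1.68 ± 0.23 SE, adjusted p = 0.00256). All 4 were higher in CD166 cells without overlap between the groups.

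On the lower side, Creb3l3, a membrane-bound transcription factor of lipid metabolism in enterocytes and liver, had 1.66 and 2.81 CPM in CD166 cells and 73.4, 36.9 and 192 CPM in crypt cells (log2 -5.46 ± 0.73 SE, adjusted p = 0.00249), and with the library labelled ileum crypt 3 left out its difference was -4.60 ± 0.48 SE (adjusted p = 0.00105). Pdzk1, a scaffold protein of the brush border, had 1.66 and 1.53 CPM in CD166 cells and 84.7, 63.5 and 137 CPM in crypt cells (log2 -5.89 ± 0.64 SE, adjusted p = 0.000934). Maf, a leucine zipper transcription factor, had 13.1 and 11.3 CPM in CD166 cells and 216, 108 and 147 CPM in crypt cells (log2 -3.68 ± 0.36 SE, adjusted p = 0.000645). Slc26a6, an anion exchanger of the apical membrane, had 10.43 and 6.38 CPM in CD166 cells and 98.1, 80.5 and 216 CPM in crypt cells (log2 -3.98 ± 0.44 SE, adjusted p = 0.000951). In each of these 4 genes both CD166 libraries lay below every crypt library.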
